A study of Mus musculus with 8 samples.

Results

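The expression of 10 apolipoprotein genes, Apoa1, Apoa2, Apoa4, Apoa5, Apob, Apoc1, Apoc2, Apoc3, Apoe and Apom, was followed in mouse liver from late gestation to adulthood. The genes were listed by name. Each had a row in the tables of all samples, so that they are 10 of the 22059 genes listed, and all 10 were among the 17081 genes that passed a filter on low counts. The livers came from FVB mice, an inbred strain (wild-type FVB/NJ in the Methods), with 2 samples at embryonic day 18 (E18), 2 at postnatal day 14 (P14), 2 at postnatal day 28 (P28) and 2 from adults of 3 months. No mutant allele, treatment or diet is named for any group. The comparison addresses how the liver transcriptome matures after birth. Poly(A)-selected RNA of the whole organ was sequenced, so hepatocytes were measured together with blood-forming, Kupffer, endothelial and stellate cells. In such bulk samples fewer cells of a type and less RNA per cell cannot be told apart. The study calls the 2 samples of a stage biological duplicates, but the labels do not name animals or litters, so p-values measure the spread between these samples.

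Apolipoproteins are the protein coat of lipoprotein particles, which carry cholesterol and triglyceride through blood, and hepatocytes are a main source of most of them. Apob is the large structural protein of very-low-density and low-density lipoproteins, Apoa1 and Apoa2 are the main proteins of high-density lipoprotein (HDL), and Apoe binds the receptors that clear remnant particles. The smaller C apolipoproteins and Apoa5 move between particles and set how fast lipoprotein lipase removes their triglyceride. In rodents the small intestine also makes Apob, Apoa1 and Apoa4.

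The reads counted on genes ranged from 68154675 to 106055723 over the 8 samples. TMM, the scaling of edgeR that assumes most genes unchanged, gave factors that divide the values, which were 1.60 and 1.54 at E18 and 0.84 to 0.89 in the 6 postnatal samples. E18 values were thus lowered and postnatal values raised. Values below are counts per 1000000 after this scaling (CPM) unless RPKM, the deposited value per kilobase of transcript, is named. With library size alone in place of TMM, the median log2 fold change of all genes from E18 to P14 was -0.90 instead of -0.03, and every change of the 10 genes that starts at E18 was lower by a similar amount. The 8 hepatocyte markers summed to 60919 to 66592 CPM at E18, 308326 to 312534 at P14, 199885 to 219260 by P28 and 108756 to 129087 in adult. Alb, Trf and Ahsg carried most of this sum, whereas Fga and Fgb had means of 5948 and 5375 CPM at P14 and of 6263 and 7925 in adult. The 9 erythroid markers summed to 10425 to 13418 CPM at E18 and to 80.8 to 97.7 at the later stages. The 7 pancreatic acinar markers summed to 239 and 516 CPM in the E18 samples and to at most 119 later. Of the later sum Cela1 alone had means of 117 CPM at P28 and 112 in adult, whereas it had 11.9 at E18. The part of these cell mixtures in the changes from E18 was not tested.

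All 10 genes rose from E18 to P14 at a false discovery rate below 0.1 (edgeR quasi-likelihood test with Benjamini-Hochberg adjustment over 17081 genes), where 38.2% of all tested genes rose and 39.3% fell. Past 3-fold, the fold threshold of the study, 8 genes rose and 0 fell, against 13.8% and 15.4% of all tested genes. The count of 0 falls was also 0 at an unadjusted p below 0.05 and in DESeq2. The median log2 fold change was 3.52 for the 10 genes, -0.03 for all tested genes and 2.22 for the 8 hepatocyte markers, which ranged from 1.97 to 3.33. With library size alone, 8 of the 10 genes rose and 2 fell, beside 18.6% and 66.8% of all tested genes. The median of the 10 genes was then 2.65.

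**Figure D1:**
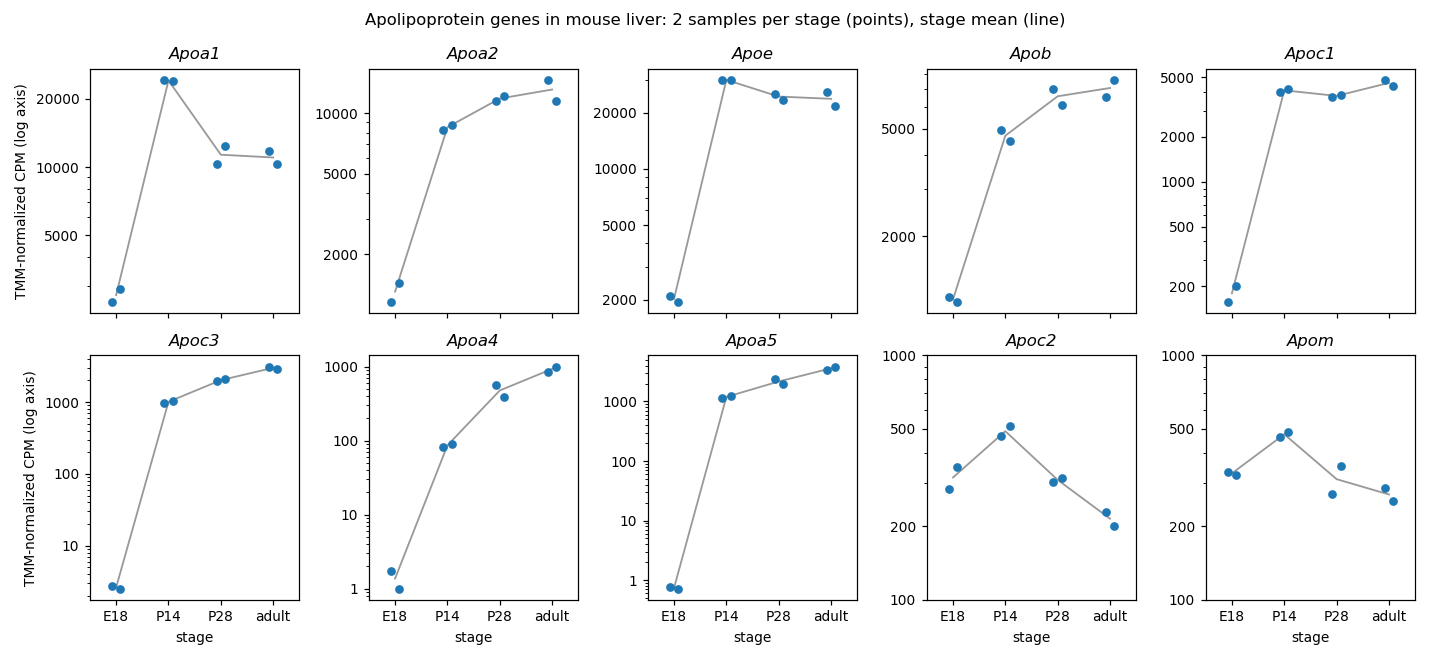
CPM after TMM scaling (log axis, 1 scale per gene) of each apolipoprotein gene at the 4 stages; points are the 2 samples of a stage and lines join the stage means. Apoc3, Apoa4 and Apoa5 start between 0.72 and 2.72 CPM at E18, whereas Apoc2 and Apom stay between 201 and 513 CPM throughout.

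After P14 the genes took different courses. From P14 to P28, 5 genes rose (Apoa2, Apoa4, Apoa5, Apob and Apoc3) and 3 fell (Apoa1, Apoc2 and Apom), against 25.2% and 28.6% of all tested genes. Only Apoa4 passed 3-fold, as a rise, where 3.61% of all genes rose and 5.98% fell. From P28 to adult, 3 genes rose (Apoa4, Apoa5 and Apoc3) and 1 fell (Apoc2), against 7.94% and 13.2% of all genes. None passed 3-fold in either direction in edgeR, at an unadjusted p below 0.05 or in DESeq2, where 0.767% of all genes rose and 2.24% fell in the edgeR fit. From E18 to adult as a whole, 8 genes rose and 2 fell, against 39.5% and 43.8%. The 8 rises were all over 3-fold and no fall was, against 16.8% and 23.8% of all genes. The medians of the 10 genes were 0.17, 0.13 and 3.44 in these comparisons, and those of all tested genes were -0.05, 0.00 and -0.11.

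**Figure D2:**
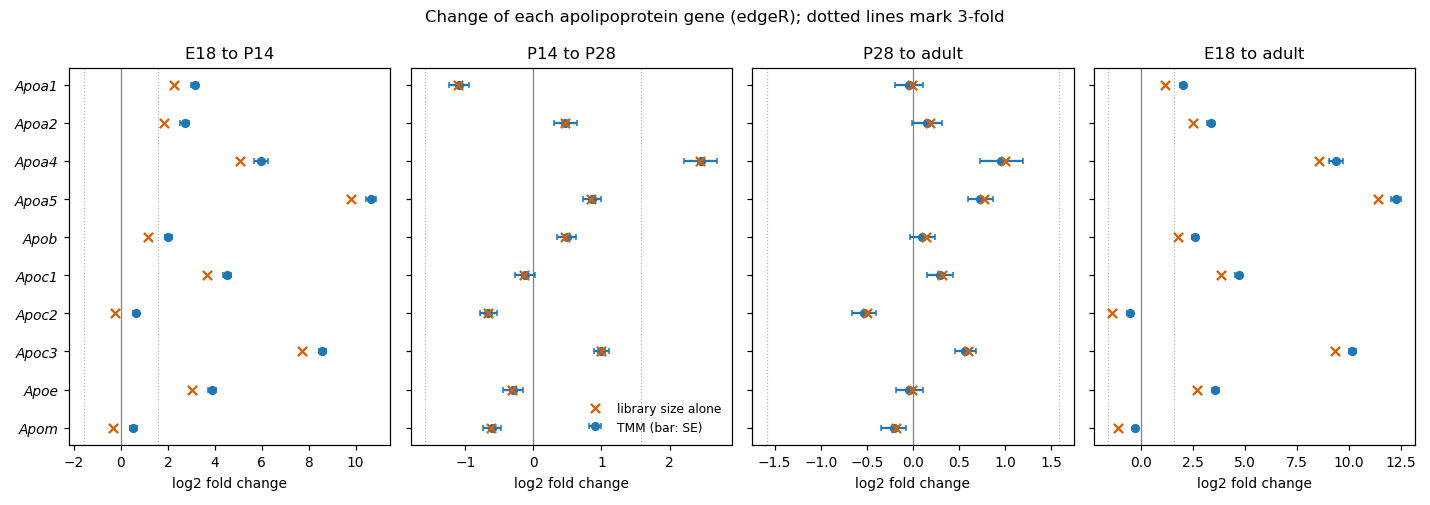
Log2 fold change of each gene in the 4 comparisons, with TMM scaling (circles, bars are standard errors) and with library size alone (crosses); dotted lines mark 3-fold. Crosses lie left of the circles in the comparisons that start at E18, and Apoc2 and Apom cross 0 from E18 to P14.

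The genes lie at 5 places in the genome (GENCODE M21 on GRCm38, matched by symbol since the files give no coordinates). Apoa1 (chr9:46228580-46230466, plus strand), Apoc3 (chr9:46232933-46235636, minus strand), Apoa4 (chr9:46240696-46243459, plus strand) and Apoa5 (chr9:46268633-46271919, plus strand) form a cluster with gaps of 2466, 5059 and 25173 bases. Apoc2 (chr7:19671579-19677941), Apoc1 (chr7:19689481-19692660) and Apoe (chr7:19696109-19699188) form another, all on the minus strand, with Apoc4 between Apoc2 and Apoc1. Apoc4 lies 141 bases from Apoc2 on the same strand, and how reads running across both were counted is not given in the sources used here. Apoa2 (chr1:171225054-171226379, plus strand), Apob (chr12:7977648-8016835, plus strand) and Apom (chr17:35128997-35132050, minus strand) stand alone. The transcript lengths recovered from the files ranged from 521 bases for Apoa2 to 13909 for Apob, so levels of different genes are compared below only as RPKM.

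Promoters of 8 of the 10 genes were found in the RefSeq table (GRCm38.p6), as 12 windows from 250 bases before to 50 after a start site. Apoc1 and Apoc3 had no entry. The windows were searched on both strands for CAAAGNNCA (the core bound by HNF4A, a hepatocyte nuclear receptor), TGTTTAC (FOXA) and TATAAA (the TATA box), which were held by 6.359%, 3.65% and 13.616% of 32851 mouse promoters. HNF4A letters occurred in the windows of Apoa4 and Apob. The windows of Apoa1, Apoc2 and Apom held none of these 3 motifs. FOXA and TATA letters also occurred at alternative starts of Apoe, and TATA letters in windows of Apob and Apoa2, which are not shown. These matches describe letters and not bound sites. The 4 stretches below show the strand that the gene is read from, with the motif in capitals. Distances are counted from the RefSeq start of the window, which can differ from the GENCODE gene start above. The HNF4A match of Apoa4 (chr9:46240652-46240681) begins 182 bases before a RefSeq start at 46240844, which lies inside the GENCODE gene. That of Apob (chr12:7977564-7977593), on the opposite strand, begins 103 bases before a RefSeq start at 7977677, also inside the GENCODE gene. The FOXA match of Apoa2 (chr1:171224966-171224995) begins 77 bases before its start, which is the same in both annotations. The TATA box of Apoa5, the gene with the largest rise, begins 31 and 56 bases before its 2 RefSeq starts (chr9:46268565-46268594), of which the second is the GENCODE start. All 4 genes lie on the plus strand.
Apoa4, HNF4A: tgttctgagaCAAAGTTCAggttggtggca
Apob, HNF4A: gcccgggccgTGCCCTTTGgacctttggca
Apoa2, FOXA: tgtctaaccctTGTTTACtccagcctgatc
Apoa5, TATA: tggcgcctagagTATAAAgtaagagtgtct

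The HDL proteins Apoa1 and Apoa2 were the most abundant apolipoprotein transcripts at E18 and then separated. Apoa1, which activates the enzyme that esterifies HDL cholesterol, stood at 2551 and 2907 CPM at E18, 24236 and 23848 at P14, 10325 and 12327 by P28, and 11707 and 10319.7 in adult. Both P14 samples were above all others, both E18 samples were below all others, and the P28 and adult samples overlapped. Apoa1 rose 8.81-fold from E18 to P14 (log2 fold change 3.14 ± 0.163, where ± is the standard error, SE, edgeR adjusted p = 2.5e-07). It then fell 2.12-fold to P28 (log2 fold change -1.09 ± 0.152 SE, edgeR adjusted p = 0.00055). From P28 to adult its log2 fold change was -0.04 (edgeR adjusted p = 0.90). Apoa1 was the only one of the 8 genes that rose past 3-fold from E18 to adult which lost more than 1 log2 unit after P14. Its rise from E18 to adult was 4.04-fold (log2 fold change 2.01), and with library size alone it was 1.16 on the log2 scale, below 3-fold.

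Apoa2, the other main HDL protein, stood at 1161 and 1446 CPM at E18, 8284 and 8729 at P14, 11416 and 12194 by P28, and 14639 and 11524 in adult. Each of the first 3 stages lay above the one before without overlap, and the P28 and adult samples overlapped. It rose 6.53-fold from E18 to P14 (log2 fold change 2.71 ± 0.176 SE, edgeR adjusted p = 1e-06). From P14 to P28 it rose 1.39-fold (log2 fold change 0.47, edgeR adjusted p = 0.044). That later call was lost without any single library of P14 or P28, with edgeR adjusted p between 0.10 and 0.22. Within a library, which needs no scaling between samples, the ratio of Apoa1 to Apoa2 RPKM was 1.16 and 1.06 at E18, 1.55 and 1.44 at P14, 0.478 and 0.535 by P28, and 0.423 and 0.474 in adult. Apoa1 thus led Apoa2 per length at E18 and P14 and trailed it in all 4 later samples.

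Apoe and Apob are the ligands by which lipoproteins are taken up. Apoe stood at 2086 and 1945 CPM at E18, 29818 and 29989 at P14, 25272 and 23447 by P28, and 25644 and 21736 in adult. The P14 samples were the highest, the E18 samples the lowest, and the P28 samples lay within the adult range. Apoe rose 14.8-fold from E18 to P14 (log2 fold change 3.89 ± 0.163 SE, edgeR adjusted p = 7.3e-08). Its log2 fold change from P14 to P28 was -0.30 (standard error 0.145, edgeR adjusted p = 0.13), which passed the threshold under 7 of the 16 alternatives, with DESeq2 among them. By RPKM, Apoe was the 15th and 18th gene of the liver at E18 and the third in all 4 samples from P28 on. Macrophages also express Apoe. The 10 macrophage markers summed to 346 to 487 CPM at E18, 591 to 651 at P14, 591 to 716 by P28 and 331 to 340 in adult, and their part in the Apoe level was not tested.

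Apob, the structural protein of the particles that the liver secretes, stood at 1187 and 1142 CPM at E18, 4926 and 4497 at P14, 7043 and 6145 by P28, and 6556 and 7597 in adult. The groups rose without overlap up to P28, and P28 and adult overlapped. Its rise from E18 to P14 was 4.05-fold (log2 fold change 2.02 ± 0.141 SE, edgeR adjusted p = 1.7e-06), the smallest of the 8 rises past 3-fold. With library size alone it was 1.15 on the log2 scale and no longer past 3-fold. From P14 to P28 Apob rose 1.40-fold (log2 fold change 0.49, edgeR adjusted p = 0.018). That call was lost without P14 replicate 2 (edgeR adjusted p = 0.16) and without P28 replicate 1 (edgeR adjusted p = 0.13). The RPKM of Apoe was 19.5 and 18.9 times that of Apob at E18, 67.3 and 74.1 times at P14, 39.9 and 42.4 times by P28, and 43.5 and 31.8 times in adult.

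In the chromosome 9 cluster, Apoa1 was abundant at E18 while its 3 neighbours Apoc3, Apoa4 and Apoa5 were close to absent. Apoc3, which slows lipoprotein lipase and the uptake of remnants, had 378 and 309 reads at E18, or 2.72 and 2.525 CPM. It stood at 979.9 and 1036.5 CPM at P14, 1960 and 2075 by P28, and 3122.5 and 2875 in adult. No stage overlapped another and each lay above the one before. Apoc3 rose by 8.58 on the log2 scale from E18 to P14 (standard error 0.156, edgeR adjusted p = 3e-09), by 1.00 from P14 to P28 (edgeR adjusted p = 0.00016) and by 0.57 from P28 to adult (edgeR adjusted p = 0.011).

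Apoa5, which promotes triglyceride removal by lipoprotein lipase, had 105 and 88 reads at E18, or 0.757 and 0.719 CPM. It reached 1135 and 1249 CPM at P14, 2378 and 1951 by P28, and 3349 and 3857 in adult, again with no overlap between stages. Its log2 fold change was 10.65 from E18 to P14 (standard error 0.211, edgeR adjusted p = 3.8e-09), the largest of the 10 genes, followed by 0.86 to P28 (edgeR adjusted p = 0.0011) and 0.73 to adult (edgeR adjusted p = 0.0092). By RPKM it moved from rank 13849 and 13772 at E18 to rank 51 and 42 in adult.

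Apoa4, a component of triglyceride-rich particles and HDL, was the gene that came up last. It had 242 and 123 reads at E18, or 1.74 and 1.00 CPM. It stood at 83.1 and 89.7 CPM at P14, 565.5 and 386 by P28, and 856 and 999.5 in adult, with no overlap between stages. Its rise was 62.5-fold from E18 to P14 (log2 fold change 5.97 ± 0.295 SE, edgeR adjusted p = 1.8e-07). It was 5.51-fold from P14 to P28 (log2 fold change 2.46 ± 0.243 SE, edgeR adjusted p = 8.4e-05). From P28 to adult it was 1.95-fold (log2 fold change 0.96 ± 0.232 SE, edgeR adjusted p = 0.026), a call that was lost without P28 replicate 2 (edgeR adjusted p = 0.14) and without adult replicate 2 (edgeR adjusted p = 0.13).

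Because the intestine also makes Apoa4, enterocyte markers were set beside it. Cdx2, a transcription factor of the intestine, had 641 and 304 reads in the E18 samples and 0 or 1 read in each later sample. Vil1 had 1018 and 545 reads at E18 and 24 to 83 later, and Sis had no read in any of the 6 postnatal samples. E18 replicate 1 had more reads of Apoa4, Cdx2 and Vil1 than replicate 2, and also of Cdx1, Lct and Sis. Fabp2 went the other way, with 516 reads in E18 replicate 1 and 681 in replicate 2. The part of intestinal RNA in the E18 value of Apoa4 was not tested. Over the 6 enterocyte markers the summed level was 13.5 to 18.0 CPM at E18, 124.5 to 128 at P14, 108 to 110.1 at P28 and 47.0 to 51.6 in adult. Fabp2 alone made up 107.8 to 127 CPM at P14 and P28. From P14 to adult, when Apoa4 rose, Cdx1, Cdx2, Lct and Sis each had at most 4 reads in a sample.

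**Figure D3:**
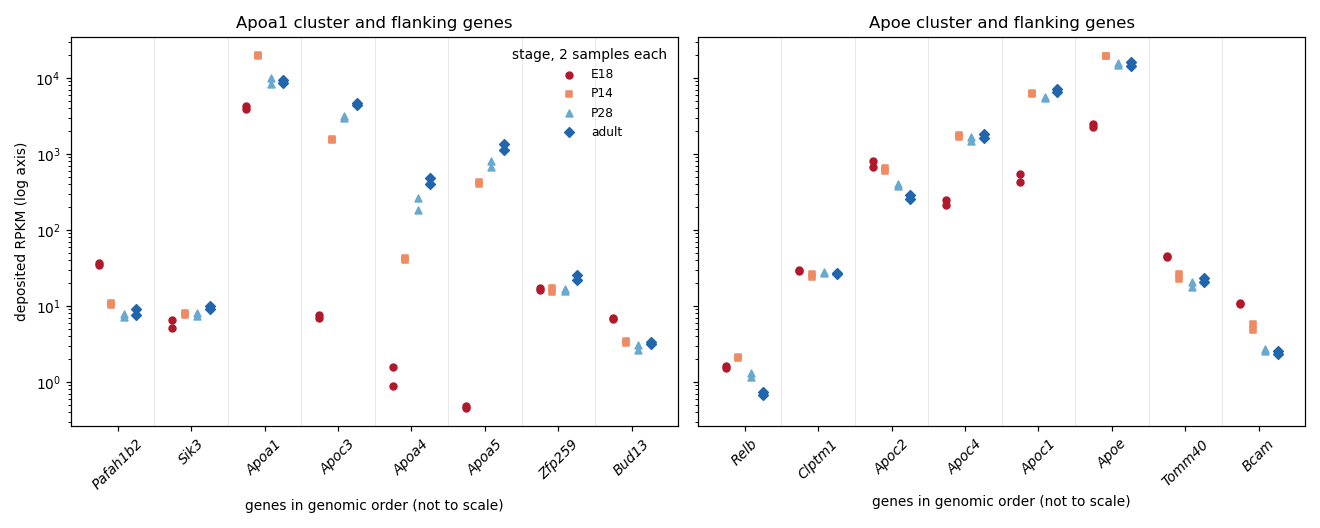
Deposited RPKM (log axis) of the genes of the Apoa1 cluster (left) and the Apoe cluster (right) with 2 flanking genes on each side, in genomic order; symbols are stages with 2 samples each. Apoc3, Apoa4 and Apoa5 span the widest range, whereas Apoa1 next to them is above 3800 RPKM already at E18.

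Per length, Apoa1 was the highest of the cluster at every stage, and its lead narrowed. At E18 the RPKM of Apoa1 was 498 and 612 times that of Apoc3, 2470 and 4890 times that of Apoa4 and 7950 and 9520 times that of Apoa5. In adult it was 1.99 and 1.91 times that of Apoc3, 23.1 and 17.5 times that of Apoa4 and 8.24 and 6.31 times that of Apoa5. At each stage the ratio of the replicate pair stood apart from that of E18 for all 3 genes. The ratio of Apoa5 to Apoc3 changed less, from 0.0627 and 0.0643 at E18 to 0.242 and 0.303 in adult, with 0.212 to 0.274 at P14 and P28. The genes that flank the cluster are named for their position. From E18 to adult Sik3 rose by 1.58 on the log2 scale (edgeR adjusted p = 1.6e-06) and Zfp259 by 1.37 (edgeR adjusted p = 1.1e-06), Pafah1b2 fell by 1.23 (edgeR adjusted p = 4.3e-06), and Bud13 had a log2 fold change of -0.22 (edgeR adjusted p = 0.13). Scaled by library size alone, these values were 0.73, 0.52, -2.08 and -1.07, the last then a call (edgeR adjusted p = 3.4e-05), beside 1.16 for Apoa1, 9.31 for Apoc3, 8.54 for Apoa4 and 11.40 for Apoa5.

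Among the C apolipoproteins, Apoc1 and Apoc3 rose while Apoc2 did not follow. Apoc1, which inhibits lipoprotein lipase and receptor binding, stood at 157 and 201 CPM at E18, 4017 and 4184 at P14, 3720.5 and 3801 by P28, and 4831 and 4363 in adult. Its postnatal stages lay close together without overlapping, and all were far above E18. It rose 22.9-fold from E18 to P14 (log2 fold change 4.52 ± 0.165 SE, edgeR adjusted p = 3.5e-08). Its log2 fold changes afterwards were -0.12 (edgeR adjusted p = 0.50) and 0.29 (edgeR adjusted p = 0.22), below the threshold.

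Apoc2, the activator that lipoprotein lipase requires, stood at 283 and 349.8 CPM at E18, 466 and 513 at P14, 303 and 316 by P28, and 228 and 201 in adult. The P14 samples were the highest and the adult samples the lowest, and the P28 samples lay within the E18 range. With TMM scaling Apoc2 rose by 0.63 on the log2 scale from E18 to P14 (standard error 0.128, edgeR adjusted p = 0.0017), a direction that turned with library size alone (-0.24, edgeR adjusted p = 0.086) and with limma on RPKM (-0.22, adjusted p = 0.14). It fell by 0.66 from P14 to P28 (edgeR adjusted p = 0.003) and by 0.53 from P28 to adult (edgeR adjusted p = 0.026), the latter lost without either P28 library or adult replicate 2 (edgeR adjusted p between 0.11 and 0.17). From E18 to adult it fell 1.47-fold (log2 fold change -0.56 ± 0.128 SE, edgeR adjusted p = 0.0029), and by 1.41 on the log2 scale with library size alone.

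Between the transcripts of Apoc3, an inhibitor of lipoprotein lipase, and Apoc2, its activator, the order turned over from E18 to P14. Protein levels and lipase activity were not measured in these samples. The ratio of Apoc3 to Apoc2 RPKM was 0.0116 and 0.00869 at E18, 2.53 and 2.43 at P14, 7.79 and 7.91 by P28, and 16.5 and 17.2 in adult. Put the other way, Apoc2 exceeded Apoc3 by 86.3 and 115 times at E18 and amounted to 0.0607 and 0.0581 of it in adult. The ratio of Apoc1 to Apoc2 went from 0.648 and 0.672 at E18 through 10.1 and 9.52 at P14 and 14.3 and 14.1 at P28 to 24.7 and 25.3 in adult. Both ratios separated every stage from the others without overlap. Apoc4, named for its place between Apoc2 and Apoc1, rose by 3.81 from E18 to adult on the log2 scale (edgeR adjusted p = 1.8e-08), so Apoc2 was the only gene of the chromosome 7 cluster that fell in this comparison. Of the 4 flanking genes, Clptm1 had a log2 fold change of 0.73 (edgeR adjusted p = 2.8e-05), Tomm40 of -0.15 (edgeR adjusted p = 0.24), Relb of -0.30 (edgeR adjusted p = 0.096) and Bcam of -1.27 (edgeR adjusted p = 1.2e-05). Under library size alone they were -0.12 (edgeR adjusted p = 0.22), -1.0 (edgeR adjusted p = 2.6e-05), -1.15 (edgeR adjusted p = 0.0001) and -2.11 (edgeR adjusted p = 3.8e-07).

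**Figure D4:**
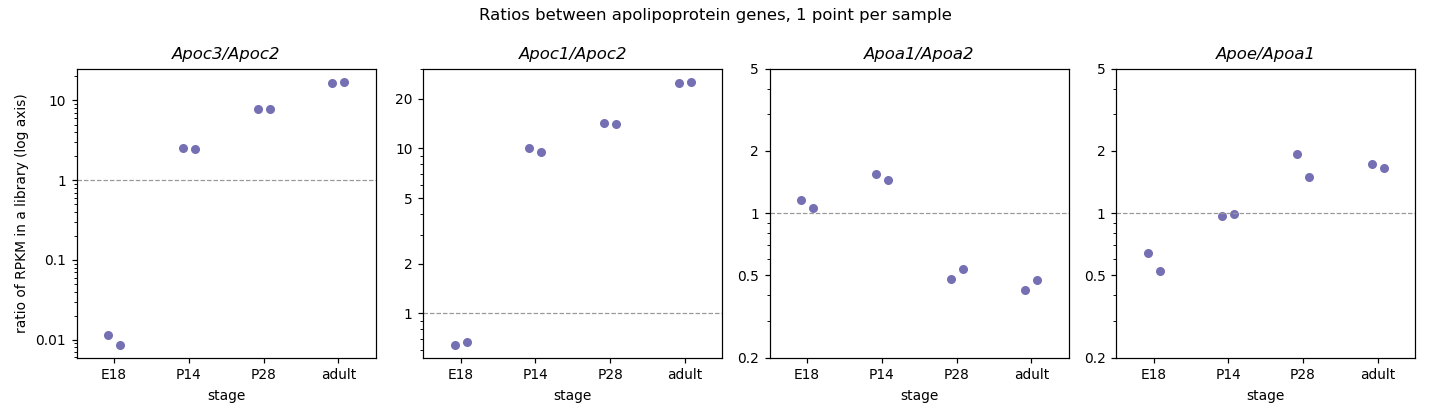
Ratio of the RPKM of a pair of apolipoprotein genes in each library (log axis, 1 point per sample; the dashed line marks a ratio of 1). Apoc3 to Apoc2 moves from 0.0116 and 0.00869 at E18 to 16.5 and 17.2 in adult, and Apoa1 to Apoa2 drops below 1 at P28.

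Apom, which carries sphingosine-1-phosphate on HDL, was the other gene with little net change. It stood at 333.7 and 325 CPM at E18, 466 and 486 at P14, 271 and 352 by P28, and 287 and 253 in adult. The P14 samples were the highest, the P28 samples overlapped those of E18 and adult, and both adult samples lay under both E18 samples. With TMM scaling Apom rose by 0.53 on the log2 scale from E18 to P14 (standard error 0.135, edgeR adjusted p = 0.0061), whereas the value was -0.34 with library size alone (edgeR adjusted p = 0.043) and -0.33 with limma on RPKM (adjusted p = 0.066). It fell by 0.61 from P14 to P28 (edgeR adjusted p = 0.006), and the value from P28 to adult was -0.21 (edgeR adjusted p = 0.35). The fall from E18 to adult was slight with TMM (log2 fold change -0.29, edgeR adjusted p = 0.076) and was lost without either E18 library, either P14 library or adult replicate 2 (edgeR adjusted p between 0.11 and 0.33). With library size alone it was -1.14 (edgeR adjusted p = 4.2e-05). Over the 8 samples the log2 CPM of Apom and Apoc2 had a Pearson's r of 0.92, as a description over samples that share 4 stages.

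The 10 genes together took a larger part of the transcriptome after birth. They held 1.24% and 1.28% of the reads on genes at E18, 6.43% and 6.38% at P14, 5.35% and 5.40% by P28, and 6.08% and 5.66% in adult. The mean was 1.26% ± 0.028 (SD, n = 2) at E18 and 5.87% ± 0.30 (SD, n = 2) in adult, so that the E18 samples lay far under every later sample. These shares do not depend on the scaling between libraries, but they do depend on the other abundant genes of each library.

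Apoa1, Apoa2 and Apoe made up most of the apolipoprotein transcripts at every stage. Of the summed RPKM of the 10 genes they held 83.3% and 83.2% at E18, 84.7% and 84.3% at P14, 79.7% and 80.2% by P28, and 77.0% and 74.6% in adult. Among them Apoa1 went from 33.5% ± 0.28 (SD, n = 2) at E18 to 15.3% ± 0.35 in adult, and Apoe from 19.6% ± 2.5 to 26.0% ± 0.14. Apoa2 held 30.1% ± 2.2 at E18, 21.3% ± 0.57 at P14 and 34.4% ± 2.0 in adult. The C apolipoproteins exchanged places. Apoc2 went from 6.05% ± 0.40 to 0.468% ± 0.011, Apoc1 from 4.0% ± 0.37 to 11.8% ± 0.49 and Apoc3 from 0.061% ± 0.0083 to 7.88% ± 0.43. Apom went from 5.60% ± 0.57 to 0.519% ± 0.011. Apob held 1.02% at E18 and 0.708% in adult by RPKM, but 14.5% and 10.6% of the reads of the 10 genes, since its transcript is the longest.

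**Figure D5:**
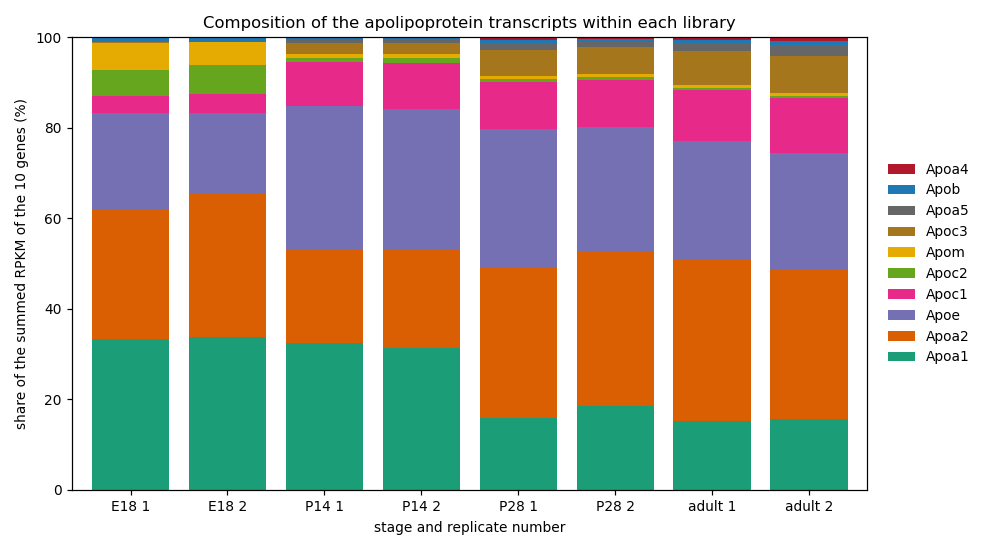
Share of each gene in the summed RPKM of the 10 apolipoprotein genes, 1 bar per library. Apoa1, Apoa2 and Apoe fill 74.6% to 84.7% of every bar, Apoc2 and Apom are widest at E18, and Apoc3 widens from P14 to adult.

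By RPKM the order at E18 was Apoa1, Apoa2, Apoe, Apoc2, Apom, Apoc1, Apob, Apoc3, Apoa4 and Apoa5. The samples of Apoa1 (3842 and 4271) and Apoa2 (3304 and 4017) overlapped, as did those of Apoc2 (666 and 802) and Apom (692 and 657.5), and the remaining neighbours in this order did not. In adult the order was Apoa2, Apoe, Apoa1, Apoc1, Apoc3, Apoa5, Apoa4, Apob, Apom and Apoc2. There only the samples of Apoa4 (405 and 487) and Apob (371 and 443) overlapped. Apoc2 thus moved from the fourth to the last place and Apoc3 from the eighth to the fifth.

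The wider apolipoprotein and lipoprotein genes were counted by role. Beside these counts from E18 to adult stand all tested genes, of which 39.5% rose and 43.8% fell, or 22.1% and 64.9% with library size alone. Of 9 tested other apolipoprotein genes, 8 rose and 1 fell from E18 to adult, under TMM and library size alone. The largest rise was in Apon, with 1.43 and 1.92 CPM at E18 and 636 and 765 in adult (log2 fold change 8.71, edgeR adjusted p = 3e-09). The fall was in Apol8, with 52.4 and 75.7 CPM at E18 and 0.0688 and 0.0602 in adult (log2 fold change -9.93, edgeR adjusted p = 3.6e-08). Of 12 genes of lipoprotein assembly and secretion, 11 rose and 0 fell, and with library size alone 10 rose and 1 fell. Tm6sf2, which adds lipid to nascent particles, rose most from E18 to adult (log2 fold change 3.29, edgeR adjusted p = 5.4e-07). It stood at 2.44 and 2.97 CPM at E18, 36.5 and 44.9 at P14, 64.25 and 58.05 by P28, and 31.6 and 21.3 in adult, so its highest samples were those of P28. Of 4 genes of Apob RNA editing, 3 rose and 1 fell under both scalings, and Apobec1, the deaminase that edits Apob mRNA, rose from 3.62 and 4.58 to 27.0 and 32.5 CPM (log2 fold change 2.86, edgeR adjusted p = 2.9e-07).

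Of 8 genes of lipolysis in the circulation, 7 rose and 1 fell from E18 to adult, and with library size alone 6 rose and 1 fell. Lipg, the endothelial lipase that acts on HDL, rose most (log2 fold change 3.42, edgeR adjusted p = 1.1e-07). The fall was in Lpl, lipoprotein lipase, the enzyme that Apoc2 activates. Lpl stood at 227 and 204 CPM at E18, 867 and 836 at P14, 179 and 167 by P28, and 12.7 and 14.5 in adult. It peaked at P14 and no stage overlapped another. Lpl fell by 2.30 on the log2 scale from P14 to P28 (edgeR adjusted p = 2.1e-06) and by 3.67 from P28 to adult (edgeR adjusted p = 5.3e-06). Over these intervals its cofactor Apoc2 fell by 0.66 and 0.53, with the calls described above.

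Of 9 genes of HDL formation and remodelling, 7 rose and 1 fell from E18 to adult, and with library size alone 6 rose and 2 fell. Pon1, an HDL-bound esterase, rose most (means of 22.7 ± 2.38 CPM to 1097 ± 147 CPM, SD, n = 2, log2 fold change 5.60, edgeR adjusted p = 5.2e-09). Of 10 lipoprotein receptor genes, 4 rose and 5 fell, or 4 and 6 with library size alone, near the shares of all tested genes. Lrp1, a hepatic receptor for Apoe-bearing remnants, rose from 137 and 125 to 965 and 1114 CPM (log2 fold change 2.99, edgeR adjusted p = 6.6e-08). Lrp8, an Apoe receptor known mainly from brain, went from 13.2 and 11.4 CPM to 0.138 and 0.151 (log2 fold change -6.40, edgeR adjusted p = 2.4e-08). Of 22 transcriptional regulators known to act on these genes or in hepatocytes, 20 rose and 1 fell, and with library size alone 19 rose and 2 fell. Nr1d1, a circadian repressor, rose most, with 7.08 and 6.50 CPM at E18, 14.8 and 12.3 at P14, 103 and 177 by P28, and 163 and 153 in adult (log2 fold change from E18 to adult 4.54, edgeR adjusted p = 2e-07). Nr2f1 fell, with a log2 fold change of -1.73 (edgeR adjusted p = 0.00068). Its level was low, with 238 and 179 reads at E18 and 38 and 21 in adult, or 0.653 and 0.316 CPM. The times of day at which livers were taken are not given in the sources used here.

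Of the 19 tested genes that flank the apolipoprotein loci, 9 rose and 8 fell from E18 to adult, near the 39.5% and 43.8% of all tested genes, with a median log2 fold change of -0.15 against 3.44 for the 10 apolipoprotein genes. Nr1i3, the nuclear receptor CAR, at a distance of 4353 bases from Apoa2, rose most (3.22 and 2.82 CPM to 143 and 109, log2 fold change 5.38, edgeR adjusted p = 6.7e-09). Klhl29, beside Apob at a distance of 2601966 bases, fell most (log2 fold change -2.22, edgeR adjusted p = 0.00012). It had few reads, 219 and 127 at E18 and 15 and 20 in adult. With library size alone, 7 of these genes rose and 11 fell.

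Rises and falls were also counted by interval. From E18 to P14, 8 of 9 other apolipoprotein genes, 12 of 12 assembly genes, 8 of 8 lipolysis genes, 9 of 9 HDL genes, 20 of 22 regulators, 2 of 4 editing genes and 4 of 10 receptors rose, beside 38.2% of all tested genes. Under library size alone these counts were 8, 8, 8, 7, 14, 1 and 3, beside 18.6%. In the same order, the falls from E18 to P14 were 1, 0, 0, 0, 0, 1 and 3, beside 39.3%. Library size alone gave 1, 2, 0, 1, 2, 1 and 7 falls, beside 66.8%. From P14 to P28 the same lists held 5, 6, 2, 2, 10, 3 and 4 rises, beside 25.2% of all tested genes. Their falls were 1, 0, 4, 2, 3, 1 and 3, beside 28.6%. From P28 to adult they held 1, 2, 2, 1, 5, 0 and 1 rises, beside 7.94%. Their falls were 0, 2, 1, 2, 1, 0 and 3, beside 13.2%.

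For each apolipoprotein gene the gene outside the 10 with the most similar shape of course was found by Pearson's r of log2 CPM over the 8 samples. The size of a change does not enter r. Sdr42e1, named below for Apoa5, had means of 7.85 CPM at E18 and 271 in adult, whereas Apoa5 had 0.738 and 3602.6. Cd300lg, named for Apoe, had 1.2 and 16.9, beside 2015.4 and 23690.2 for Apoe. Since the samples are 4 pairs of one stage each, many genes with a step before P14 reach a high r, and the values are descriptions. Apoa5 was closest to Sdr42e1 (r = 0.9997, with 595 genes above 0.99), Apoc3 to Cgnl1 (r = 0.9995, 650 genes), Apoa2 to Akr7a5 (r = 0.9996, 531 genes), Apoc1 to BC021614 (r = 0.9994, 457 genes) and Apob to Mprip (r = 0.9988, 430 genes). Apoa4 was closest to Pcmtd1 (r = 0.9991, 314 genes) and Apoe to Cd300lg (r = 0.9997, 271 genes). The course of Apoa1, up and then down, was shared by fewer genes, with Nt5m closest (r = 0.9989, 19 genes). Apoc2 was closest to Trp53i13 (r = 0.9876) and Apom to Tmem149 (r = 0.9816), with 0 genes above 0.99 for either.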

How the data were processed

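Poly(A) RNA-seq of 8 whole-liver samples was used, grouped by the stage in the labels. The authors aligned 100 bp read pairs to the mouse genome and deposited, per gene symbol, raw read counts without normalization. They also deposited RPKM, in which the count is divided by transcript length in kilobases and by mapped reads in units of 1000000. The submitters' processing notes name the build mm9, and the aligner is not given in the sources used here. For RNA isolation, Trizol stands in the labels and a column kit in the Methods. Dividing counts by RPKM gave 1 length for each of 10240 genes with enough reads and totals of 73844259 to 112713530 reads per sample, of which 91.45 to 94.11% were on genes. Counting noise at this depth is small except for genes with few reads, such as Apoa5 at E18.

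Counts were filtered with filterByExpr, scaled by TMM and fitted in edgeR (version 4.0.16) with 1 coefficient per stage over all 8 samples, and stages were compared with glmQLFTest. Genes were called at a false discovery rate below 0.1, and also past 3-fold. That rate is given in the Methods of the study and the fold in its results. A figure legend of the study instead pairs the fold with a p-value threshold from Fisher's exact test. The members and gene lists were chosen with earlier results of these data known. Besides the 10 genes, the text names the closest gene to each by correlation, the largest called rise and fall of each list, and genes flanking the clusters, by position. Listed genes were matched by symbol or synonym. Mia3 was not matched, and Angptl8 is listed as Gm6484. Duplicates of a stage were not 1 library deposited more than once (chi-square per degree of freedom 49.2 to 93.7). Alternatives were library size alone, median-ratio scaling, other count filters, DESeq2 (version 1.42.0), limma (version 3.58.1) on log2(RPKM + 0.1), 2 stages only, a replicate block, each library left out, a rate of 0.05 and a 2-fold threshold. A further promoter motif that was searched is not reported here. The fits were tested on simulated data that shared a common mean profile, with a set of genes changed in adult only. That test does not bear on the scaling of the E18 samples. Tools were R 4.3.3, Python 3.11.15, pandas 2.3.3, numpy 2.4.6 and matplotlib 3.10.9.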

Additional observations from a re-analysis of the deposited data

How the results depend on the processing

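The 40 log2 fold changes of the 10 genes were recomputed under 16 alternatives. Of 640 values, 604 kept their direction and their side of the threshold, 17 kept the direction but lost the call, 9 gained a call and 10 turned direction. From E18 to P14, Apoc2 turned to -0.24 with library size alone and to -0.22 with limma on log2(RPKM + 0.1), and Apom to -0.34 and -0.33; these scalings do not lower the E18 samples as TMM does. From P28 to adult, with each library left out in turn, uncalled values crossed 0. Apoa1 ranged from -0.16 to 0.09, Apoa2 from -0.04 to 0.30, Apob from -0.01 to 0.20 and Apoe from -0.17 to 0.07. The lone sample of the reduced stage was assumed to vary like the others. Calls lost without single libraries are given with Apoa2, Apob, Apoa4, Apoc2 and Apom, and the cause was not tested. Apoa2 from P14 to P28 was also lost in limma (0.44, adjusted p = 0.35). Calls were gained for Apoe from P14 to P28 (-0.26 to -0.32) and for Apoc1 from P28 to adult (0.29) without either E18 library. With a 2-fold threshold, 3 genes in place of 1 changed from P14 to P28. The other counts past 3-fold stayed at 8, 1, 0 and 8, or at 7, 1, 0 and 7 with library size alone and limma. The genes named for the largest rise or fall of each list gave 206 values, none of which changed its direction or call. Of the flanking genes named for position, Clptm1, Tomm40 and Bud13 changed direction or call with library size alone, with the values given beside them.

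With the replicate number as a block (replicate block) the counts were 8, 1, 0 and 8 and no call changed. Samples of the same number did not deviate together (mean r -0.018, from -0.093 to 0.089 over 6 pairs of stages), so the numbers were not taken to pair samples.

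Shares of the 10 genes depend on the division by length. By reads in place of RPKM, at E18, P14, P28 and in adult, Apoa1 held 33.9, 32.3, 18.0 and 16.3%. Apoa2 held 16.1, 11.4, 18.7 and 19.4%. For Apoe these were 25.1, 40.2, 38.6 and 35.0%. For Apob they were 14.5, 6.33, 10.4 and 10.6%. Apoc1 held 2.22, 5.51, 5.96 and 6.81%, Apoc2 3.92, 0.657, 0.49 and 0.318%, and Apoc3 0.0328, 1.35, 3.20 and 4.45%. Apom held 4.10, 0.639, 0.494 and 0.40%, Apoa4 0.0173, 0.116, 0.753 and 1.39%, and Apoa5 0.00919, 1.59, 3.43 and 5.38%. Depth limits only the E18 values of Apoa4, Apoa5 and Apoc3, which rest on 88 to 378 reads a sample.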

Other observations

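Apoe and albumin, the most abundant transcript of hepatocytes, took different courses from P28 to adult. Alb stood at 38314 and 38405 CPM at E18, 163456 and 163611 at P14, 129667 and 114364 by P28, and 65945 and 49661 in adult. The ratio of Apoe to Alb RPKM within a library was 0.0889 and 0.0827 at E18, 0.298 and 0.299 at P14, 0.318 and 0.335 by P28, and 0.635 and 0.715 in adult. The adult samples were thus above all others in this ratio, although Apoe itself was no higher in adult than at P28. The hepatocyte markers had a median log2 fold change of -0.27 from P28 to adult, with 0 of 8 above 0, against 0.13 for the 10 apolipoprotein genes. Of the 8 markers, 3 were called as falls, where 13.2% of all tested genes fell. F2 and Serpinc1 changed little, with means of 2838.5 and 3778.1 CPM at P28 and 2742.2 and 3696.7 in adult. The rise of the ratio is thus tied to Alb as its denominator. These values were noticed in the data and were not tested.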
